A study of Mus musculus with 21 samples.

Results

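Marker genes of synovial fibroblasts, the cells that line and fill the joint membrane, were followed through DNA methylation profiles of cultured mouse cells. The genes were Pdpn, Prg4, Thy1, Cdh11, Ngfr, Sfrp1, Smoc2, Pdgfd, Pdgfra and Pdgfrb, and every region that the deposited tables assign to one of these 10 names was taken. That gave 13 regions of the 49307 listed in 4 tables, at 7 of the 10 genes. Thy1, Prg4 and Cdh11 had no listed region in any table, and since only regions found different were listed, nothing can be said of their methylation.

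The cultures were from Tg197 animals, a transgenic line that overproduces human TNF and is used as a model of arthritis, or from wild-type (WT) animals, all of CBA x C57BL/6J background and all at passages 4 to 5. The 21 samples formed 7 groups of 3, with Tg197 set against WT for ages of 3, 8 and 11 weeks and TNF-treated WT cells set against untreated ones for 8 weeks. The same WT libraries of 8 weeks served as controls for Tg197 and for TNF. The labels give neither the dose and time of TNF, nor the sex of the mice, nor whether replicates were separate animals or cultures, so p-values rest on the spread among these samples alone, and that spread may be technical. MethylCap-seq pulls methylated fragments out with a protein that binds methylated CpG and counts them by sequencing, so CpG content as well as methylation sets the reads of a region. In such bulk DNA a different mix of cells and a different methylation per cell cannot be told apart, and the cell type of the labels could not be checked, since no expression data were used here.

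Fibroblasts of the joint form a lining layer at the surface, marked by lubricin (Prg4) and podoplanin (Pdpn), and a sublining beneath it, marked by the surface protein Thy1. Cadherin-11 (Cdh11) holds the lining cells together. The growth factor Pdgfd and the receptors Pdgfra and Pdgfrb drive fibroblast growth and migration, Sfrp1 is a secreted inhibitor of Wnt signalling, Smoc2 is a calcium-binding matrix protein of the SPARC family and Ngfr is the low-affinity nerve growth factor receptor. Methylation near a gene start often accompanies silencing, whereas methylation within a gene body has no fixed relation to its activity.

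Of the 13 regions 3 were gained, 9 were lost and 1 did not pass, where gained means more captured DNA in Tg197 or TNF-treated cells (limma on log2(value + 1), Benjamini-Hochberg adjustment over all regions of a table, threshold 0.05). Of all 49307 listed regions 16039 were gained, 23133 were lost and 10135 did not pass. All 13 had been listed by the authors as different, so each test here is a retest of a chosen region. Regions were between 500 and 1050 bp long. By the class the tables give, 9 lay in gene bodies and 4 lay 1 to 3 kb from a start. None of the 13 lay within 1 kb of a start, where 1.59% (nearest class) and 2.96% (next class) of all gene-assigned regions were found.

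The 2 marker genes with a lost region downstream of the start within 3 kb, Pdgfd and Pdpn, are shown with their promoter windows, because methyl-CpG capture can report only on CG pairs and the windows show those at the start itself. Each window runs from 250 bases before to 50 after the start in RefSeq (GRCm38.p6), on the coding strand, with CG pairs in capitals. The Pdgfd window is chr9:6168236-6168535 (plus strand) and the Pdpn window chr4:143299515-143299814 (minus strand).
Pdgfd: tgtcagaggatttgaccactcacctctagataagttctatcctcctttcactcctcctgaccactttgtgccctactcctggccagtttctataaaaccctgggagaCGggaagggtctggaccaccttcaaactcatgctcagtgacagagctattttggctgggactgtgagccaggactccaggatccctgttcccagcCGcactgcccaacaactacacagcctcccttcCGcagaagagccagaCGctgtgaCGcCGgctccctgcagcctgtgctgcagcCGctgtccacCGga
Pdpn: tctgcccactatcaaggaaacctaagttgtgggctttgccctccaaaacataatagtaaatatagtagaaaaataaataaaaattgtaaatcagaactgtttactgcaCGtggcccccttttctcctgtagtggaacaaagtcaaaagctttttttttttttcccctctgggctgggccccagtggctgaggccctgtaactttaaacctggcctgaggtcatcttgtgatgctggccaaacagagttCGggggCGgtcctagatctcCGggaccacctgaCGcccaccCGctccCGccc
The Pdgfd window held 8 CG pairs, 7 of them in its last 120 bases, and the Pdpn window 7, of which 6 lay in the last 120. The median of the 32851 windows in the RefSeq table was 7, and 94.6% of windows held at least 1. Of the 10 marker genes 4 had a window, and Ngfr held 23 CG pairs and Pdgfra 5. In the files' own build, mm9, the listed Pdgfd region began 1990 bp and the listed Pdpn region 1359 bp downstream of the annotated start, outside these windows.

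Reads recovered within listed regions ranged from 385155 to 2875554 per library, being lowest at 11 weeks and highest at 3 weeks, and the depth outside them is unknown. These sums depend on which regions a table lists, so they do not rank the libraries by sequencing depth. The WT libraries of 8 weeks held 767619 to 1143699 such reads in the Tg197 comparison and 1285306 to 1858694 in the TNF comparison. The first and second TNF-treated libraries held identical values at every region, so they entered as 1 sample (n = 2 after TNF, n = 3 in WT). Setting all libraries of a table to 1 median in place of the deposited scaling shifted fold changes by 0.26 at 3 weeks, 0.15 at 8 weeks, -0.38 at 11 weeks and 0.97 after TNF (log2), and 4 of the 13 regions then passed. These were both gains of 3 weeks and the losses at Pdgfd (3 weeks) and Smoc2 (11 weeks). The median was taken over listed regions alone, all chosen as different, so this setting would also remove a real imbalance of gains and losses. It moves every fold of a table by the same amount, towards gains at 3 weeks and towards losses at 11 weeks. Passing or failing under it therefore cannot decide whether a region differs.

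**Figure D1:**
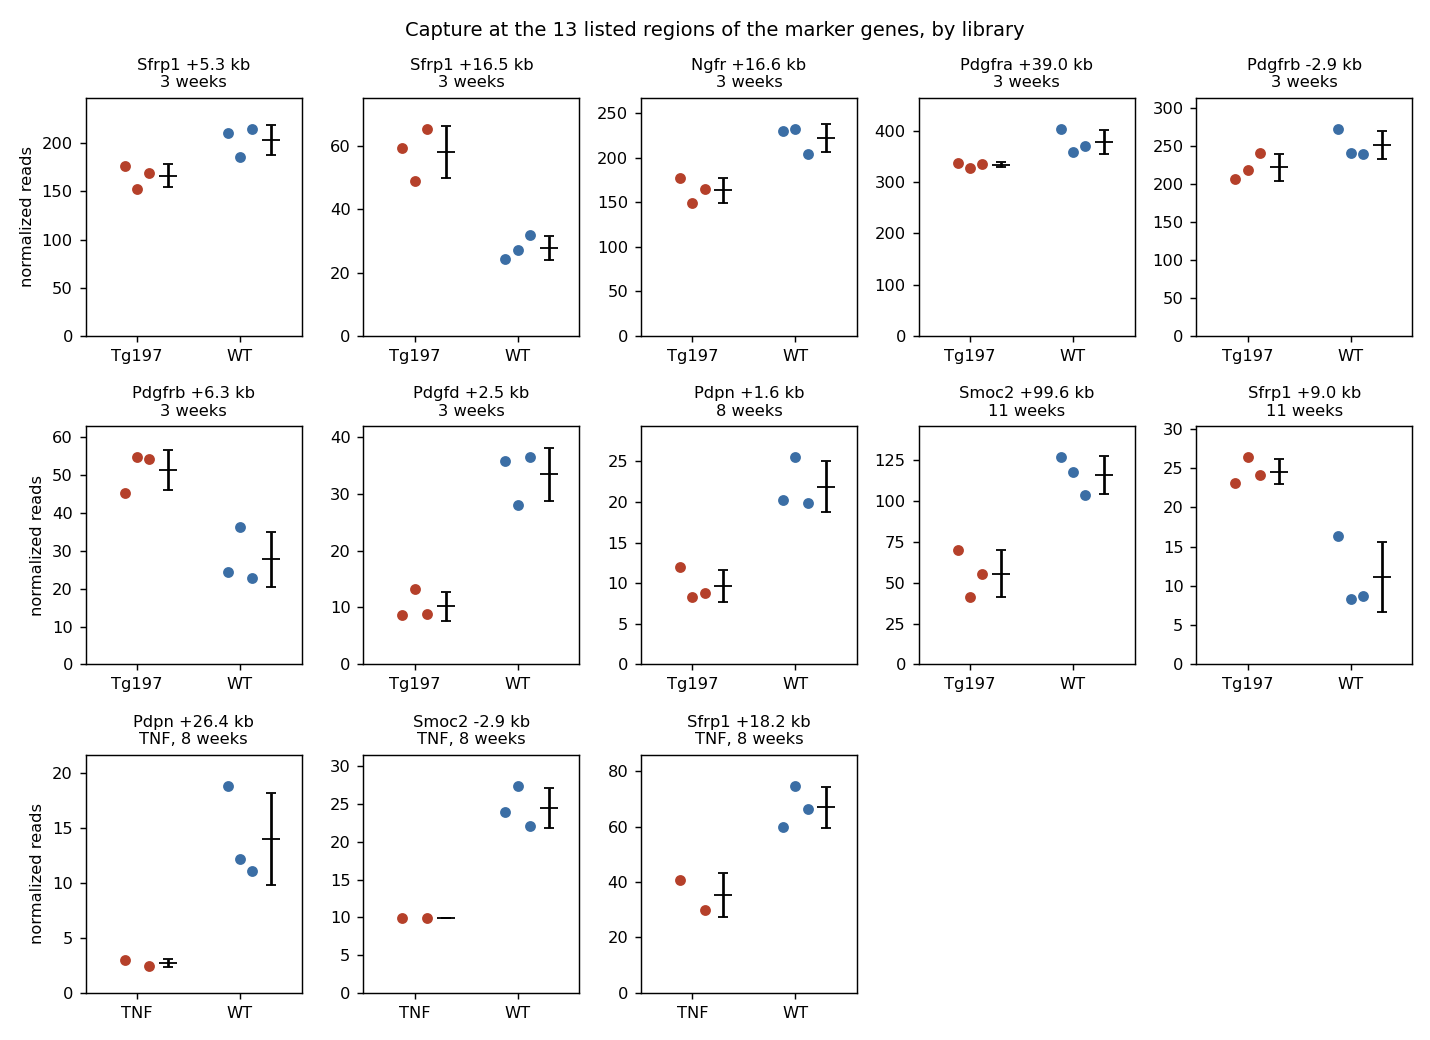
Normalized reads (vertical axis, from 0) of each library at the 13 listed regions, with Tg197 or TNF-treated cells left and WT right; black marks are means with SD. The groups overlap only at the Pdgfrb region centred at -2.90 kb, where the highest Tg197 library (241.33) lies above the lowest WT library (239.71).

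The comparison at 3 weeks, the stage the study calls early, held 7 of the 13 regions. Gains numbered 2, losses 4, and 1 region did not pass, so that 6 of 7 passed where 85% of all 13125 listed regions did. By direction, 40.3% of all listed regions passed as gained and 44.7% as lost. By the adjusted p of the authors' deposited table all 7 were under 0.05, against 90.9% of that table. Values of Tg197 and WT did not overlap at 6 of the 7, against 86.1% of the table. These shares are near those of the table, and the median fold change of the 7 was -0.18 against -0.12 over all regions (log2).

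Capture at the growth factor gene Pdgfd fell in Tg197 cells at 3 weeks, in a region just inside the gene (chromosome 9, 6170601 to 6171550). The 3 Tg197 libraries had 8.64, 13.2 and 8.9 normalized reads, against 35.68, 28.05 and 36.35 in WT. All Tg197 libraries lay below all WT libraries, with means of 10.2 ± 2.56 in Tg197 and 33.4 ± 4.61 in WT (SD, n = 3 each). The log2 fold change was -1.63 (SE 0.28, limma, adjusted p = 0.00146), and 0.619% of the regions with a fold below 0 at this age had a larger one. That share does not take read level into account. In either direction, the median absolute fold was 1.03 over regions with a mean under 100, such as Pdgfd, and 0.24 over those at 100 or more. The Pdgfd loss kept its direction and passed when any single library was left out, with fold changes from -1.81 to -1.53. It also passed at -1.36 with libraries set to 1 median. In the authors' deposited table the best window of this region, its first 500 bp, had a log2 fold change of -2.33. The values rested on few reads, 8, 14 and 9 in Tg197 libraries against 38, 31 and 32 in WT libraries.

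Listed regions lay densely around Pdgfd at 3 and 11 weeks but sparsely at 8 weeks and after TNF. Within 1 Mb of it 29 other regions were listed at 3 weeks, 7 higher and 22 lower in Tg197, where a listed region had a median of 13 such neighbours. At 11 weeks 21 regions were listed there, 7 higher and 14 lower (table median 8). At 8 weeks there were 2, both higher in Tg197 (table median 12), and after TNF there were 5, of which 4 were higher in treated cells (table median 18). Over all listed regions, 43% were higher in Tg197 at 3 weeks, 54% at 11 weeks and 49% at 8 weeks, and 34% were higher in treated cells after TNF. In the first 25 Mb of chromosome 9, which hold Pdgfd, 171 of 232 regions listed at 3 weeks and 79 of 124 at 11 weeks were lower in Tg197, against 15 of 44 at 8 weeks, and 53 of 104 were lower after TNF. The part of this stretch in the value at Pdgfd was not tested.

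The receptor genes of the same family gave smaller or opposite values. Pdgfra, the alpha receptor, had a region near the end of the gene (chromosome 5, 75590901 to 75591450, 39.0 kb from the start). Its values were 338.03, 328.12 and 335.29 in Tg197 libraries against 403.77, 358.35 and 371.49 in WT libraries, without overlap. The mean fell to 334 ± 5.12 in Tg197, against 378 ± 23.4 in WT (log2 fold -0.18, SE 0.07, limma, adjusted p = 0.0221), but turned to 0.08 with libraries set to 1 median. The call was lost without Tg197 library 2 (-0.16, adjusted p = 0.0723), without WT library 1 (-0.13, adjusted p = 0.0888) and without a mean trend (limma, adjusted p = 0.0668).

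Pdgfrb, the beta receptor that marks sublining and mural cells, had a region upstream and one inside the gene (chromosome 18). Upstream, centred at -2.90 kb (61201651 to 61202150), the values were 206.27, 218.75 and 241.33 in Tg197 libraries against 272.31, 240.71 and 239.71 in WT libraries. The groups overlapped, and the difference of means, 222 ± 17.8 in Tg197 and 251 ± 18.5 in WT, did not pass (log2 fold -0.18, SE 0.08, limma, adjusted p = 0.0511), although the authors' deposited table gives this region an adjusted p of 1.29e-08. With libraries set to 1 median the fold was 0.09. It passed with a pseudocount of 5 (limma, adjusted p = 0.0495), by limma voom (adjusted p = 0.0384) and without Tg197 library 3 or WT library 2 or 3 (adjusted p = 0.0233, 0.0456 and 0.0486).

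Inside Pdgfrb, 6.30 kb from the start (61210851 to 61211350), capture rose. The values were 45.36, 54.69 and 54.4 in Tg197 libraries against 24.41, 36.2 and 22.72 in WT libraries, without overlap. Means were 51.5 ± 5.30 in Tg197 and 27.8 ± 7.34 in WT (log2 fold 0.89, SE 0.22, limma, adjusted p = 0.00271). Only 8.7 kb separated this gain from the upstream region, and the gain passed without any single library, from 0.77 to 1.09.

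Across the PDGF family of 6 genes, 4 ligands and 2 receptors, 6 regions at 5 genes were listed at 3 weeks, with 1 gained, 4 lost and 1 not passing. The median log2 fold change was -0.22, against -0.12 over the table. Besides the regions above these were Pdgfa and Pdgfb, both platelet-derived growth factor ligands, named here after their values were seen. Pdgfa averaged 14.2 ± 4.60 in Tg197 and 29.5 ± 0.38 in WT (log2 fold -1.05, limma, adjusted p = 0.00337). Pdgfb averaged 167 ± 11.4 in Tg197 and 200 ± 11.8 in WT (log2 fold -0.25, limma, adjusted p = 0.0104). At 8 weeks the single listed region of the family lay in Pdgfb and was lost, with 14.6 ± 6.85 in Tg197 and 35.5 ± 7.55 in WT (log2 fold -1.29, limma, adjusted p = 0.0428). None of the 6 genes had a region at 11 weeks or after TNF.

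Sfrp1, the Wnt inhibitor, held 4 of the 13 regions, in 3 of the 4 tables, all within its gene body on chromosome 8. At 3 weeks it carried both directions. In the region 5.28 kb from the start (24527001 to 24527500) the values were 176.03, 152.75 and 169.13 in Tg197 libraries against 210.33, 185.51 and 214.71 in WT libraries. They did not overlap, and the mean fell to 166 ± 12.0 in Tg197, against 204 ± 15.7 in WT (log2 fold -0.29, SE 0.09, limma, adjusted p = 0.00569); with libraries set to 1 median the fold was -0.03 (limma, adjusted p = 0.775).

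Further in, 16.5 kb from the start (24537951 to 24538900), capture rose. Tg197 libraries had 59.4, 49.03 and 65.28 normalized reads, against 24.41, 27.15 and 31.81 in WT libraries. Every Tg197 library lay above every WT library, and means were 57.9 ± 8.23 in Tg197 and 27.8 ± 3.74 in WT (log2 fold 1.03, SE 0.20, limma, adjusted p = 0.00168). The gain passed without any single library, from 0.94 to 1.14, and stood at 1.29 with libraries set to 1 median.

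At 11 weeks another region, 8.98 kb from the start (24530701 to 24531200), was gained. The values were 23.14, 26.34 and 24.14 in Tg197 libraries against 16.32, 8.38 and 8.77 in WT libraries, again without overlap. Means were 24.5 ± 1.64 in Tg197 and 11.2 ± 4.48 in WT (log2 fold 1.13, SE 0.35, limma, adjusted p = 0.0219). The call was lost without any 1 of 4 libraries (Tg197 1, 2 or 3, or WT 2; folds from 0.97 to 1.17, limma, adjusted p from 0.0508 to 0.0622) and with libraries set to 1 median (fold 0.75, limma, adjusted p = 0.0744). It lay between the regions of 3 weeks, 3.2 kb past the lost one and 6.75 kb before the gained one. After TNF, a region 18.2 kb from the start (24539701 to 24540550) was lost, with 40.81 and 29.76 in the distinct TNF-treated libraries against 59.93, 74.65 and 66.35 in untreated WT libraries.

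The means of that last region were 35.3 ± 7.81 after TNF (n = 2) and 67.0 ± 7.38 in untreated WT (n = 3), with a log2 fold of -0.92 (SE 0.22, limma, adjusted p = 0.0109) that turned to 0.06 with libraries set to 1 median. It began 0.8 kb past the gain of 3 weeks. Tables were normalized separately and no region of Sfrp1 was listed in more than 1 of them, so the difference between conditions was not tested.

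**Figure D2:**
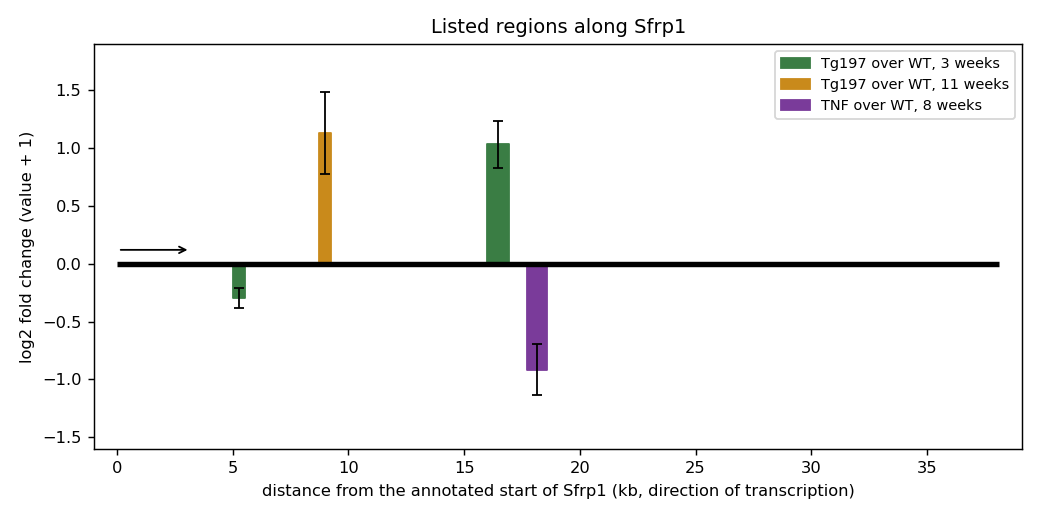
Listed regions along the Sfrp1 gene (black line, from its start at 0 kb), with the log2 fold change of Tg197 or TNF-treated over WT cells as height and the standard error as bar. Both gains, at 8.98 kb (11 weeks) and 16.5 kb (3 weeks), lie between the losses at 5.28 kb (3 weeks) and 18.2 kb (TNF).

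Among 9 secreted Wnt inhibitors, Sfrp1 was the only gene listed at 3 weeks, and none was listed at 8 weeks. At 11 weeks the Sfrp1 gain, a call that was lost without any 1 of 4 libraries, stood beside a loss in Frzb, a related inhibitor named here after its values were seen, with 32.0 ± 6.97 in Tg197 and 61.9 ± 19.1 in WT (log2 fold -0.91, limma, adjusted p = 0.0231). After TNF the loss in Sfrp1 stood beside one in Wif1, which binds Wnt proteins outside the cell, with 4.60 ± 4.75 after TNF (n = 2) and 20.9 ± 3.45 in untreated WT (log2 fold -2.28, limma, adjusted p = 0.0109).

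Ngfr, the nerve growth factor receptor, had 1 region, at 3 weeks, towards the end of the gene (chromosome 11, 95432151 to 95432700, 16.6 kb from the start). The values were 177.11, 148.98 and 165.17 in Tg197 libraries against 230.05, 232.56 and 204.49 in WT libraries, without overlap. The mean fell to 164 ± 14.1 in Tg197, against 222 ± 15.5 in WT (log2 fold -0.44, SE 0.09, limma, adjusted p = 0.00166). With libraries set to 1 median the fold was -0.18 and no longer passed (limma, adjusted p = 0.0751).

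Direction at 3 weeks went with read level. The 4 marker regions with a mean of at least 100 normalized reads (Ngfr, Pdgfra, Pdgfrb upstream and Sfrp1 at 5.28 kb) all had fold changes below 0 with the deposited scaling, with a median absolute value of 0.23. The same held over the table, where 10.4% of 7477 regions at that level were higher in Tg197 and the median absolute fold was 0.24. Of the 3 marker regions below that level 2 were higher in Tg197, against 87.0% of 5648 regions. The Pdgfd loss was thus in the less common direction for its level; the bound of 100 was chosen after the values were seen.

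**Figure D3:**
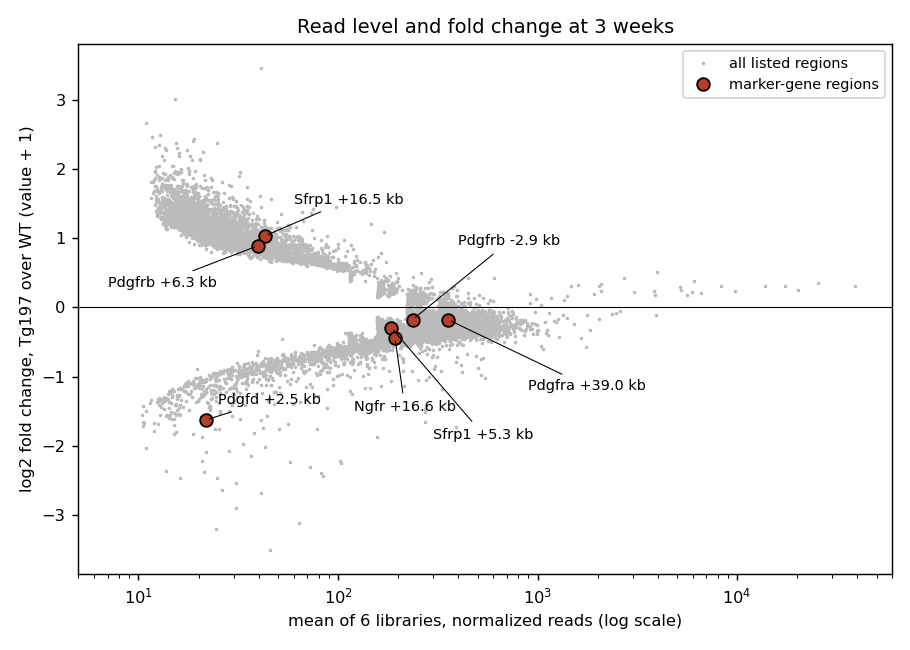
Mean normalized reads of the 6 libraries at 3 weeks (log axis) against the log2 fold change of Tg197 over WT; gray points are all 13125 listed regions and red points the 7 at marker genes. The 4 marker regions above 100 reads lie just below 0, while below 100 reads 2 lie at 1.03 and 0.89 and Pdgfd lies at -1.63.

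The comparison at 8 weeks, the established stage, held 1 marker region, in Pdpn, which encodes podoplanin, a surface glycoprotein of lining fibroblasts. It lay 1.61 kb inside the gene (chromosome 4, 142887551 to 142888050), in the class of 1 to 3 kb from a start. The values were 11.93, 8.3 and 8.83 in Tg197 libraries against 20.29, 25.47 and 19.9 in WT libraries. The groups did not overlap, as at 69.6% of the table, and means were 9.69 ± 1.96 in Tg197 and 21.9 ± 3.11 in WT (SD, n = 3 each).

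The log2 fold change at Pdpn was -1.11 (SE 0.35; limma, adjusted p = 0.0429), where 54% of 11975 listed regions passed and 36.6% passed as lost. In the authors' deposited table its adjusted p was under 0.05, as for 98% of that table. The call held without WT library 3 and was lost without any other library, with adjusted p from 0.0549 to 0.138 and fold changes from -1.25 to -0.996. It also did not pass with a pseudocount of 0.1 (limma, adjusted p = 0.0519) or with libraries set to 1 median (limma, adjusted p = 0.0647, fold -0.96). The region held 9, 12 and 6 reads in Tg197 libraries against 24, 34 and 18 in WT libraries. On each side of Pdpn, 18.2 and 16.5 kb away, a region with no gene name was also lost at 8 weeks (log2 fold -2.28 and -2.09, limma, adjusted p = 0.0428 each). Within 1 Mb of the Pdpn region 10 other regions were listed at 8 weeks, 5 higher and 5 lower in Tg197.

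After TNF, Pdpn was lost in another region, near the end of the gene and 26.4 kb from the start (142862751 to 142863250), 24.3 kb from the first. The distinct TNF-treated libraries had 2.99 and 2.48 normalized reads, against 18.84, 12.19 and 11.06 in untreated WT libraries. Both were below all WT libraries (log2 fold -1.98, SE 0.48, limma, adjusted p = 0.0109). These values were 3 and 2 reads after TNF against 22, 16 and 9 in WT, so the rate after TNF was 0.194 of that in WT. The exact 95% interval of 0.0601 to 0.484 covers counting error only, not the spread among libraries. It takes reads as independent molecules, which they are not, so it is too narrow even for counting error. With libraries set to 1 median the fold was -1.003 and did not pass (limma, adjusted p = 0.0884). Both Pdpn losses were set against the same WT libraries.

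The TNF comparison asked which regions TNF alone alters in WT cells. Its 3 marker regions, in Pdpn, Smoc2 and Sfrp1, all passed as lost, where 93.8% of 16898 listed regions passed, 64.1% as lost and 29.8% as gained. All 3 were under 0.05 by the adjusted p of the authors' deposited table, against 98.2% of that table. Their groups did not overlap, as at 95.8% of the table. Their median fold change was -1.22, against -1.09 over the table, so that these losses followed the table as a whole, and none of the 3 passed with libraries set to 1 median.

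Smoc2, the matrix protein gene on chromosome 17, had regions after TNF and at 11 weeks, 101.5 kb apart. After TNF the region centred at -2.86 kb, upstream of the start (14413251 to 14414050), had 9.95 and 9.92 normalized reads in the distinct TNF-treated libraries against 23.97, 27.42 and 22.12 in untreated WT libraries. The groups lay apart, with a log2 fold of -1.22 (SE 0.34, limma, adjusted p = 0.0109), which was -0.24 with libraries set to 1 median (limma, adjusted p = 0.564).

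At 11 weeks, the late stage, the Smoc2 region lay deep in the gene, 99.6 kb from the start (14515601 to 14516650). Capture fell, with 70.21, 41.23 and 55.18 in Tg197 libraries against 126.46, 117.27 and 103.29 in WT libraries. The groups did not overlap, and means were 55.5 ± 14.5 in Tg197 and 116 ± 11.7 in WT (log2 fold -1.07, SE 0.25, limma, adjusted p = 0.0219). With libraries set to 1 median the loss stood at -1.45 (limma, adjusted p = 0.0117).

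At 11 weeks the Smoc2 loss and the Sfrp1 gain were the only marker regions, and both passed, where 77.9% of 7309 listed regions did (49.7% as gained, 28.2% as lost). Values overlapped at neither, where 83.7% of the table had none overlapping. By the adjusted p of the authors' deposited table both were under 0.05, against 98.5% of that table. The Smoc2 call, like that of Sfrp1, was lost without Tg197 library 1, Tg197 library 3 or WT library 2, with folds of -1.26, -1.08 and -1.06 and adjusted p from 0.0531 to 0.0539 (limma). Without these libraries the whole table passed 10, 0 and 0 regions (limma; 5125, 4638 and 5186 at unadjusted p under 0.05), against 5694 with all libraries and 5142 by limma voom.

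**Figure D4:**
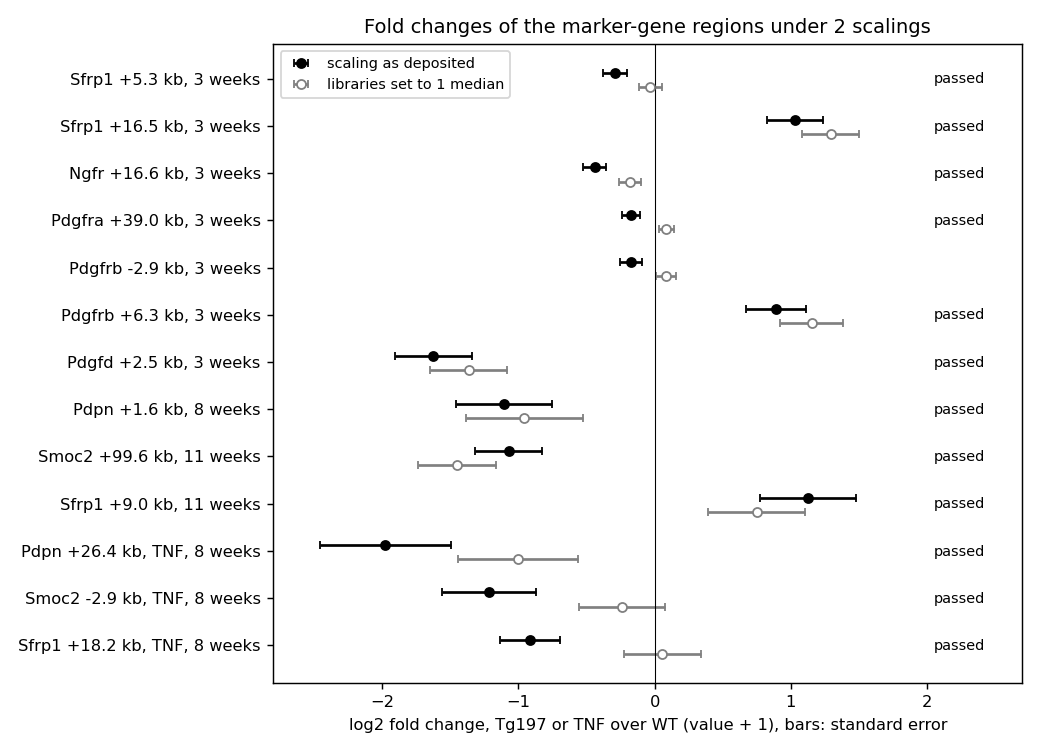
Log2 fold change of Tg197 or TNF-treated over WT cells with its standard error for the 13 regions, named by gene and distance from the start; filled points use the deposited scaling and open points set all libraries of a table to 1 median. The word passed marks the 12 regions that passed with the deposited scaling, and the open points of Pdgfra, Pdgfrb at -2.90 kb and Sfrp1 after TNF lie on the other side of 0.

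The SPARC family of 8 matrix proteins, to which Smoc2 belongs, was listed in every table. At 3 weeks it held 5 regions, all in 1 gene (4 gained, 1 lost), at 8 weeks 2 (1 gained, 1 lost), at 11 weeks 5 (3 gained, 2 lost) and after TNF 9 (5 gained, 4 lost). Over all listed regions the shares gained and lost were 40.3% and 44.7% at 3 weeks, 17.4% and 36.6% at 8 weeks, 49.7% and 28.2% at 11 weeks, and 29.8% and 64.1% after TNF. The gene listed at 3 weeks was the proteoglycan gene Spock1. Its region with the smallest adjusted p, 183 kb from the start, had 44.4 ± 8.14 in Tg197 and 18.9 ± 5.06 in WT (log2 fold 1.21, limma, adjusted p = 0.00191). At 11 weeks another region of Spock1 had 56.2 ± 22.4 in Tg197 and 23.3 ± 7.70 in WT (log2 fold 1.21, limma, adjusted p = 0.0219). Regions named by the same rule were lower at 8 weeks in Fstl1 (log2 fold -0.64) and after TNF in Spock2 (-2.32). Sparcl1 at 11 weeks had a loss within 1 kb of the start (-0.65) and a gain at 1 to 3 kb (0.80). After TNF the family's median log2 fold was 0.52, with Smoc2 among its losses, and -1.09 over the table. Direction in that table went with read level, since 22.5% of regions with a mean under 100 were higher after TNF and 83.8% of those at 100 or more. All 9 regions of the family were under 100, and 5 of them were higher; the 3 marker regions were also under 100. Whether the family differs from the marker genes was not tested.

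A wider list of 20 lining and sublining fibroblast genes held 9 regions at 3 weeks (6 gained, 3 lost), 6 at 8 weeks (1 gained, 2 lost, 3 not passing), 4 at 11 weeks (3 gained, 1 not passing) and 10 after TNF (1 gained, 8 lost, 1 not passing), to be read against the shares of all listed regions given for the SPARC family. The list's median log2 fold changes were 0.91, -0.98, 0.74 and -1.21 in these tables, against -0.12, -0.22, 0.76 and -1.09 over all regions. Direction at 3 weeks went with read level here too. The 6 regions of the list with a mean under 100 were all higher in Tg197, as were 87.0% of the table at that level. Of its 3 regions at 100 or more, 0 were higher, against 10.4% of the table. Fbln1, a basement membrane and elastic fibre protein, rose at 3 weeks to 22.6 ± 6.39 in Tg197, against 8.40 ± 2.16 in WT (log2 fold 1.32, limma, adjusted p = 0.00264). In another region it fell at 8 weeks to 25.2 ± 3.51 in Tg197, against 49.97 ± 0.68 in WT (log2 fold -0.97, limma, adjusted p = 0.0428). Within 1 kb of the start of Tbx18, a transcription factor gene, Tg197 cells had 2.31 ± 4.00 at 8 weeks and WT cells 15.1 ± 2.29 (log2 fold -3.01, limma, adjusted p = 0.0428). Only 1 Tg197 library had any reads in this Tbx18 region, so the size of its fold depends on the pseudocount of 1. With a pseudocount of 0.1, 0 regions of the table of 8 weeks passed (limma, 7511 at unadjusted p under 0.05). At 11 weeks a region in the class of 1 to 3 kb from the start of the chloride channel gene Clic5 was gained, with 109 ± 8.11 in Tg197 and 66.8 ± 29.0 in WT (log2 fold 0.80, limma, adjusted p = 0.0498).

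Close to the marker genes but with no gene name in the tables, 8 further regions were listed within 20 kb of their annotated spans, with 1 gained, 5 lost and 2 not passing. The losses lay at 8 weeks on both sides of Ngfr and of Pdpn, and at 3 weeks upstream of Sfrp1. Over all listed regions the shares gained and lost were 17.4% and 36.6% at 8 weeks, 40.3% and 44.7% at 3 weeks, and 49.7% and 28.2% at 11 weeks. The gained one lay 1.97 kb past the end of Pdgfra and was gained at 11 weeks (chromosome 5, 75596201 to 75597050). Its values were 47.87, 64.14 and 49.14 in Tg197 libraries against 24.48, 28.85 and 20.46 in WT libraries, without overlap (log2 fold 1.10, SE 0.26, limma, adjusted p = 0.0219). On the other side of Pdgfra, 15.0 kb upstream, a region of the same age did not pass, with 71.4 ± 7.72 in Tg197 and 112 ± 44.7 in WT (log2 fold -0.57, limma, adjusted p = 0.0989). At 8 weeks a region 6.79 kb upstream of Ngfr was lost, with 15.5 ± 6.86 in Tg197 and 40.1 ± 10.9 in WT (log2 fold -1.37, limma, adjusted p = 0.0428). These regions were chosen by distance after the values were seen.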

How the data were processed

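MethylCap-seq of 21 samples is described by 4 tables. Per the labels' protocols, methylated DNA was sheared to an average of 250 bp, captured with a methyl-CpG-binding protein kit in 2 salt steps that were combined, and sequenced as paired reads of 100 bp. Per the submitters' processing notes, the build was mm9 and the tools, without their roles, were Cuffdiff, Cufflinks, TopHat2, TopHat and BWA. Which program tested the regions is not given in the sources used here. Per the file headers, the deposited signal is a group mean of normalized reads, the log2 fold change is the authors' ratio of group means, and p-values are the authors', for a region and its best window. No deposited window p is above 1.00e-04.

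The 3 values of a group stand packed in 1 cell; libraries are numbered by position, which carries no replicate number. The treatment column was taken as the Tg197 or TNF-treated cells. Dividing by the step of each library gave whole reads within 0.1 for 99.98% to 100.0% of values; even values made up 57.0% to 68.4% of reads per region up to 20, so reads are not independent molecules. limma 3.58.1 (R 4.3.3), with a mean trend, was fitted per table to log2(value + 1) of all its regions; tables were normalized separately and never tested together. The adjustment covers the listed regions alone. The method was tested on simulated data in which most regions were unchanged, so that test does not cover retests of regions already chosen as different. Marker genes and lists were chosen with earlier results of these data known. All 10 marker genes are named; of other lists, promoter regions and the smallest adjusted p per table could be named.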

Additional observations from a re-analysis of the deposited data

How the results depend on the processing

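No paired analysis was possible because libraries are known by their place in a packed cell and not by a replicate number. The count model edgeR, planned in case the values were raw counts, was not run, and neither was DESeq2, since the deposited values are normalized. Limma voom on recovered reads was added after the data were seen. It passed 7, 1, 2 and 3 marker regions at 3, 8 and 11 weeks and after TNF, against 6, 1, 2 and 3. With libraries set to 1 median, 3, 0, 1 and 0 passed (4, 1, 1 and 1 at unadjusted p under 0.05), folds turned to 0.0845 at Pdgfra, 0.0856 at Pdgfrb upstream and 0.0569 at Sfrp1 after TNF, and the TNF table passed 6650 regions (5890 gained, 760 lost) against 15855. The cause was not tested. With a pseudocount of 0.1, limma passed 0 regions at 8 weeks (7511 unadjusted; 5872 by voom) and 0 marker regions there (1 unadjusted). Adjusting over the 902000, 761000, 749000 and 817000 windows that the deposited p and q-values imply, also added later, left 24 regions at 3 weeks and 0 in each other table (limma; 8127, 5952 and 15904 unadjusted; 5872, 5142 and 15754 by voom), with 0 marker regions in any; more tests are counted there by construction. Leaving out 1 library gave 0 to 8849 regions at 8 weeks and 0 to 5511 at 11 weeks (limma; at least 4382 and 4638 unadjusted), with 0 to 1 and 0 to 2 marker regions; at 3 weeks 5 to 7 and after TNF 3 marker regions passed. Without TNF-treated library 1 or 3 the lone one is assumed to vary like WT. Of 168 values of single marker regions under alternatives, 126 kept their direction and side of the threshold, 34 no longer passed, 5 newly passed and 3 turned. A minimum mean of 10 removed the Pdpn region after TNF. Depth limits the regions with few reads per library, among them those of Pdpn, Pdgfd, Sfrp1 at 11 weeks and Smoc2 after TNF.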

Other observations

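Genes that mark other cells were listed beside the fibroblast markers. The shares of all listed regions gained and lost were 40.3% and 44.7% at 3 weeks, 17.4% and 36.6% at 8 weeks, 49.7% and 28.2% at 11 weeks, and 29.8% and 64.1% after TNF. Of 5 endothelial genes, 4 had a region at 3 weeks (2 lost, 2 not passing), and Pecam1, an endothelial adhesion molecule, fell to 219 ± 17.5 in Tg197, against 285 ± 19.8 in WT (log2 fold -0.38, limma, adjusted p = 0.00183). Another region of Pecam1, at 11 weeks, rose to 48.4 ± 6.98 in Tg197, against 25.4 ± 5.75 in WT (log2 fold 0.92, limma, adjusted p = 0.0219). After TNF all 3 endothelial regions were lost, with a median log2 fold of -1.23, beside 3 of 3 marker regions with -1.22 and -1.09 over the table. Of 7 macrophage genes 2 had a region at 3 weeks (1 gained, 1 lost), and 1 each in the other tables (lost, gained and lost at 8 weeks, 11 weeks and after TNF). After TNF the lost one lay within 1 kb of the start of Itgam, an integrin of myeloid cells, with 4.73 ± 3.17 after TNF (n = 2) and 21.1 ± 8.12 in untreated WT (n = 3; log2 fold -1.996, limma, adjusted p = 0.0109). At 11 weeks both regions at Cd3e, a T cell receptor subunit, were lost, the one nearer the start with 18.1 ± 8.16 in Tg197 and 44.3 ± 6.57 in WT (log2 fold -1.32, limma, adjusted p = 0.0219). Of 5 muscle genes 2 were listed at 3 weeks, with 11 regions (2 gained, 6 lost, 3 not passing). After TNF 1 muscle gene held 9 regions (5 gained, 3 lost, 1 not passing). Their median log2 fold was 0.46, unlike that of the endothelial and marker regions. Of these muscle regions all 4 with a mean of at least 100 were higher, and 2 of the 5 under 100. Of 5 lymphocyte genes none was listed at 3 weeks, and the 1 region at 8 weeks was lost. After TNF 2 had a region, with 1 gained and 1 lost. The gained one lay within 1 kb of the start of Cd8a, with 138 ± 24.4 after TNF (n = 2) and 91.9 ± 11.2 in untreated WT (n = 3, log2 fold 0.57, limma, adjusted p = 0.0116). Since listed regions are chosen for a difference, these counts give no measure of how many such cells were present.

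Type II cadherins, the family of Cdh11, were listed though Cdh11 was not. Of 13 genes 7 had regions at 3 weeks (3 gained, 5 lost, 1 not passing) and 8 had 9 regions after TNF (6 gained, 3 lost), with a median log2 fold of 0.58 there and -1.09 over the table. Of the 7 cadherin regions with a mean under 100 after TNF 5 were higher, where 22.5% of the table at that level were, and of the 2 at 100 or more 1 was higher, where 83.8% of the table were. The smallest adjusted p of the list at 3 weeks was at Cdh8, a cadherin of the nervous system, 271 kb from the start. Capture there was 19.0 ± 0.36 in Tg197 and 5.68 ± 3.14 in WT (log2 fold 1.72, limma, adjusted p = 0.00226). Under a mean of 100 at 3 weeks, 3 of the 5 cadherin regions were higher in Tg197, as were 87.0% of the table. None of the 4 cadherin regions at 100 or more was higher.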
